A study of Homo sapiens with 78 samples.

Results

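IL-1β was added to A549 cells in the presence of budesonide, an inhaled glucocorticoid, and mRNA levels 24 h later were compared with those in cells given budesonide alone. A549 cells derive from a human lung carcinoma, grow as epithelial cells and carry the label WT for genotype. They were held overnight without serum before treatment. IL-1β (IL1B in the labels) was used at 1 ng/ml and budesonide (Bud) at 300 nM. The comparison was chosen by its labels and holds 8 of the 78 libraries of the series, 4 of IL-1β plus budesonide (IL1B+Bud) and 4 of budesonide, so that both groups share budesonide, time and cell line and differ in IL-1β. The labels describe 4 independent experiments. Groups at 24 h that were not stimulated (NS) or received IL-1β alone, with 4 libraries each, and both budesonide groups at 1, 2, 6 and 12 h, with 4 each but for 3 of IL-1β plus budesonide at 12 h, were used where a difference from them is given. One line of tumor cells without leukocytes or stroma limits what the samples can stand for. Values are normalized transcript levels per length (TPM) from poly(A) RNA sequencing. Of 19652 genes listed, 13327 reached 1 TPM in at least 3 of the 78 libraries and were tested, and 12254 of these did so in at least 3 of the 8.

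The 8 libraries summed to between 886205 and 915407 TPM, 11971 to 12138 genes reached 1 TPM in each, and mitochondrially encoded genes took 14.9% to 17.2%. No pair held identical values. The study's methods give an approximate number of reads per sample, but the values deposited hold no read count for each library. Of 10 epithelial markers 7 reached 1 TPM in at least 1 library, and KRT7, KRT8 and KRT18 were abundant. The alveolar type II genes SFTPB and SFTPC and the lung factor NKX2-1 stayed below 1 TPM in all 8, so the line lacked these markers at that level. ABCA3, a surfactant gene of the same list, was at 11.3 to 12.5 TPM with IL-1β plus budesonide and at 13.2 to 15.7 TPM with budesonide. Of 7 fibroblast markers 3 reached 1 TPM, at 4.26 TPM or less, and of 5 endothelial markers 0 did. Of 12 leukocyte markers 2 did, CD68 and ITGAM, while CD3D, CD3E, MS4A1 and FCGR3A were at 0 throughout.

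IL-1β binds the receptor IL1R1, which recruits the adaptor MYD88 and the IRAK kinases and releases NF-κB dimers from their IκB inhibitors. NF-κB then raises transcription of chemokines, cytokines and acute phase proteins, and also of its own inhibitors. Budesonide activates the glucocorticoid receptor (GR, gene NR3C1), which induces genes such as TSC22D3 and FKBP5 and lowers many inflammatory mRNAs. The comparison asks which mRNAs respond to IL-1β in lung-derived epithelial cells while GR is activated.

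IL-1β in the presence of budesonide raised 222 genes and lowered 95 at 24 h, which is 1.67% and 0.713% of those tested. Calls required an adjusted p of at most 0.05 in limma (Benjamini-Hochberg over the 13327 genes) together with a change of at least 2-fold on the log2(TPM + 0.5) scale, the scale of every log2 fold change below, each given ± SE. The increases were the larger changes. Their median log2 fold change was 1.5 and the highest 7.38, and 67 genes rose at least 4-fold, 21 of them at least 16-fold. The decreases had a median of -1.25 and reached -2.69, and 7 genes fell at least 4-fold. Over all genes tested the median was -0.03. The 4 libraries of one group did not overlap the 4 of the other for 216 of the raised and 87 of the lowered genes, against 2221 of all genes tested (16.7%). In bulk samples, fewer cells of a type and less RNA per cell cannot be told apart.

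**Figure D1:**
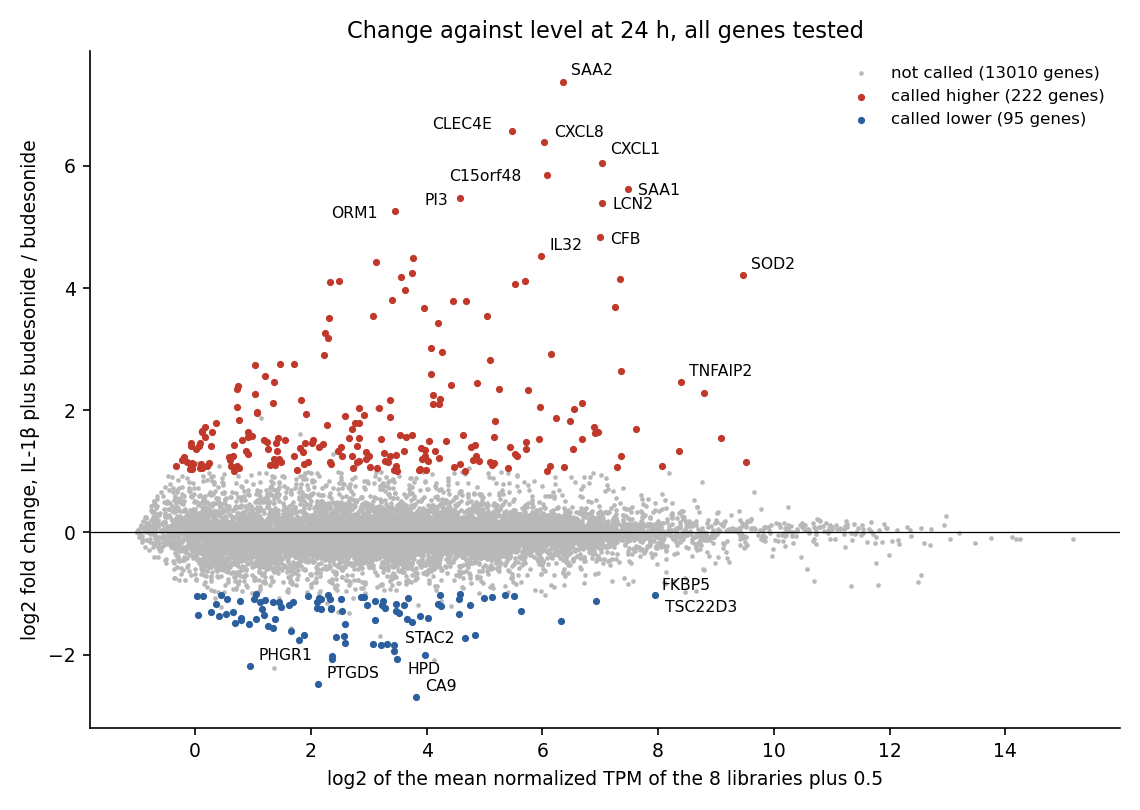
Log2 fold change of IL-1β plus budesonide over budesonide at 24 h (vertical axis) against the mean level of the 8 libraries on the log2(TPM + 0.5) scale (horizontal axis) for the 13327 genes tested. The 222 genes called higher reach 7.38, while the 95 called lower reach -2.69.

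Promoters of 4 raised genes described below are shown because each holds a κB motif, the sequence that NF-κB dimers bind. The spelling searched, chosen after others had been tried, was GGANTTTCC on either strand, in the 250 bases before and 50 bases from the annotated start (RefSeq, GRCh38.p14). Of 16 raised genes among the highest changes or always named, 11 had a promoter in the table used and these 4 held the motif. Capitals mark it in each sequence, written 5′ to 3′ on the plus strand, on which all 4 genes lie.
CXCL8, chr4:73740319-73740618: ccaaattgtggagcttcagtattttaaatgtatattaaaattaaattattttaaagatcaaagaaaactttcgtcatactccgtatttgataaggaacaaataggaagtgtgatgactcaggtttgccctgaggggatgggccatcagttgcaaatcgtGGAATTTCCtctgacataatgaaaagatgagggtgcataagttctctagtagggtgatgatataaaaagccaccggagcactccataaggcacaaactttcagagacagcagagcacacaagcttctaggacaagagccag
CXCL1, chr4:73869143-73869442: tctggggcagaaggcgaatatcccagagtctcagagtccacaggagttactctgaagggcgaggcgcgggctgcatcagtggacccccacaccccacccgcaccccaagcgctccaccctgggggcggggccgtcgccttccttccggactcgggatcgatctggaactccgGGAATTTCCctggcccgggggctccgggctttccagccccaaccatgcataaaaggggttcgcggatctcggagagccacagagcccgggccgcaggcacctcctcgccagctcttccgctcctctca
IL32, chr16:3065153-3065452: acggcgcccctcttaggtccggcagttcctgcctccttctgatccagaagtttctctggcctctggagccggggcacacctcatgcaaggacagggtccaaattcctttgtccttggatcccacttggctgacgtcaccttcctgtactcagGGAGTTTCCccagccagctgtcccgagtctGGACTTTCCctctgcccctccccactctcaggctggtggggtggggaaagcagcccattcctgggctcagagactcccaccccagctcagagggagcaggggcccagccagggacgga
TNFAIP3, chr6:137867009-137867308: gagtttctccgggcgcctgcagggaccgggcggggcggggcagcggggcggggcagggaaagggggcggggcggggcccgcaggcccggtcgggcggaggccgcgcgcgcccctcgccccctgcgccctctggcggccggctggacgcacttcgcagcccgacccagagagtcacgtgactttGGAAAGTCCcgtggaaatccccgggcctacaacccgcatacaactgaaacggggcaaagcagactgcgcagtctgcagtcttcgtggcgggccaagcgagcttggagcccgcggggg

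The motif lay 91 to 83 bases before the start of CXCL8 and 78 to 70 bases before that of CXCL1. IL32 held 2 copies, the first at 98 to 90 bases, and TNFAIP3 held 1 on the minus strand at 67 to 59 bases. Among raised genes, 20 of the 160 with a promoter (12.5%) held the motif, and among lowered genes 1 of 70 (1.43%) did. It stood in 181 of 10576 promoters of genes tested (1.71%) and in 577 of all 35116 (1.64%). A second spelling, GGGANTTCC, was in 8 of the 160 (5%) and 254 of the 10576 (2.4%). These letters describe the windows, and the RNA values used here do not measure binding. Separately, the study reports cytokine-induced recruitment of the NF-κB subunit RELA just before the CXCL8 start in these cells, unchanged by added budesonide.

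Of the tested genes of the IL-1 receptor complex and its proximal signaling 2 of 17 rose, and the median log2 fold change was 0.05. IRAK2, a kinase of the complex, was at 33.5, 36.1, 39 and 33.4 TPM with IL-1β plus budesonide and at 6.28, 6.36, 6.67 and 5.75 TPM with budesonide (2.41 ± 0.1, adjusted p = 3.41e-29). IRAK3, a family member that restrains the complex, was at 5.38, 4.09, 6.47 and 6.09 TPM against 1.53, 0.756, 0.996 and 0.981 TPM (1.94 ± 0.17). Neither gene overlapped between the groups. The receptor IL1R1 (-0.19 ± 0.23) and the adaptor MYD88 (0.08 ± 0.11) were not called, and their groups overlapped.

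Among NF-κB subunits and their kinases 4 of 12 rose, with a median of 0.45. RELB, a subunit of the noncanonical pathway, was at 34, 33.7, 31.4 and 32.6 TPM against 3.06, 2.81, 2.41 and 2.15 TPM (3.43 ± 0.15, adjusted p = 1.09e-28). NFKB2, its usual partner, rose by 2.44 ± 0.15. The kinases IKBKE (1.78 ± 0.13) and MAP3K8 (1.57 ± 0.11) also rose, without overlap between the groups. NFKB1 (0.69 ± 0.16, adjusted p = 0.000909) was short of the 2-fold needed for a call, and RELA (0.22 ± 0.17) was not called.

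Inhibitors and feedback genes of NF-κB rose in 9 of 22 cases, with a median of 0.75. TNFAIP3, which encodes the ubiquitin-editing enzyme A20 and whose promoter is shown above, was at 61.1, 50.2, 68.7 and 62.2 TPM with IL-1β plus budesonide. It was at 4.81, 4.69, 5.01 and 4.42 TPM with budesonide (3.54 ± 0.23, adjusted p = 6.23e-20), so that every library with IL-1β was above every library without it. NFKBIZ, an inducible nuclear IκB protein, rose by 3.02 ± 0.24, TNFAIP2 by 2.46 ± 0.13 and ZC3H12A, an RNase that degrades cytokine mRNAs, by 2.02 ± 0.18. NFKBIA, which encodes IκBα, was at 283, 262, 282 and 248 TPM against 187, 169, 196 and 181 TPM. Its groups did not overlap (0.55 ± 0.11, adjusted p = 8.95e-05), but the difference was below 2-fold.

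The antiapoptotic BIRC3 was at 130.5, 132, 140.1 and 154 TPM with IL-1β plus budesonide and at 41.3, 40.9, 34.8 and 38.4 TPM with budesonide (1.83 ± 0.17, adjusted p = 1.08e-13). All 4 values with IL-1β were the higher ones. Its relative BIRC2 was at 24.7 to 28.1 and 24.1 to 33.9 TPM, ranges that overlapped (-0.11 ± 0.13, adjusted p = 0.715). Of the BCL2 family 4 of 14 rose, with a median of 0.01. They were the antiapoptotic BCL2A1 (2.76 ± 0.2) and the proapoptotic BID (1.4 ± 0.11), PMAIP1 (1.16 ± 0.15) and BIK (1.09 ± 0.2). Of the TNF receptor superfamily and death receptor genes 2 of 23 rose (median 0.2), the ligand TNFSF14 (1.96 ± 0.18) and the receptor TNFRSF9 (1.03 ± 0.2). Of caspase and inflammasome genes 1 of 14 rose (median 0.19), the caspase-1 regulator CARD16 (1.05 ± 0.27). All 3 of BIK, TNFRSF9 and CARD16 stayed below 2 TPM in all 8 libraries. BIK was not called without budesonide replicate 1 (0.953). TNFRSF9 was not called without IL-1β-plus-budesonide replicate 1, 3 or 4 (0.963, 0.951 and 0.963). Quantile normalization also ended the TNFRSF9 call (0.962), which left 1 of the 23. CARD16 was not called without replicate 2 of that group (0.906) or budesonide replicate 1 or 2 (0.889 and 0.993).

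The CXC chemokines that attract neutrophils rose in 6 of 8 tested cases, with a median of 3.89. CXCL8, whose product is IL-8, was at 109, 124, 149.8 and 131 TPM with IL-1β plus budesonide and at 0.869, 0.901, 1.39 and 0.978 TPM with budesonide (6.4 ± 0.22, adjusted p = 8.74e-34). CXCL1 was at 230.2, 268, 284 and 243 TPM against 3.29, 3.38, 3.06 and 3.73 TPM (6.05 ± 0.17, adjusted p = 1.41e-38). For both genes of the promoters above, every library with IL-1β exceeded every one without it. CXCL5 (4.16 ± 0.16) rose to 279.9 to 345 from 15.5 to 17.6 TPM and CXCL2 (4.11 ± 0.17) to 84.7 to 112 from 4.89 to 5.5 TPM. CXCL6 and CXCL3 were the other raised members, CXCL6 at 0.553 to 1.54 TPM and with 3 of 4 budesonide libraries at 0. PPBP (0.21) and PF4 (-0.07) were not called. Of the 31-base words of CXCL2 transcripts 23.5% and of those of CXCL1 13.7% also occur in other genes of the GENCODE v44 annotation, so reads may be split between paralogs.

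Of chemokines for monocytes and lymphocytes 4 of 11 rose, with a median of 0.43. CCL20, the ligand of CCR6, was at 16.2, 17.4, 28.4 and 40.8 TPM against 0.45, 0.552, 0.632 and 0.704 TPM (4.5 ± 0.33, adjusted p = 7.43e-18). CCL5 was at 18.4, 15.9, 10.1 and 20.2 TPM against 0.201, 0.165, 0.343 and 0.305 TPM (4.43 ± 0.28), and CCL2, a monocyte chemokine, at 84 to 90.3 against 3.59 to 5.93 TPM (4.08 ± 0.16). None of these 3 overlapped between the groups. CCL4 was at 0.173, 0.595, 1.29 and 0.954 TPM and was listed at 0 in all 4 libraries with budesonide, so no fold is given. CXCL10 (0.43) and CX3CL1 (0.06) were not called.

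Of interleukins, colony-stimulating factors and TNF 4 of 18 rose, with a median of 0.39. IL32, a proinflammatory cytokine whose promoter held 2 motifs, was at 111, 126, 109 and 137 TPM against 5.2, 5.16, 2.88 and 6.44 TPM (4.52 ± 0.25, adjusted p = 7.1e-24). EBI3, a subunit of IL-27 and IL-35, was at 23.9, 30.3, 26.6 and 19.1 TPM against 1.12, 0.813, 0.658 and 0.735 TPM (4.25 ± 0.24). In neither gene did the groups overlap. CSF3, which encodes G-CSF, was at 4.52 to 13.1 TPM and at 0.16 TPM or less with budesonide (4.12 ± 0.3), and CSF1, the macrophage colony-stimulating factor, at 14.1 to 19 against 3.54 to 7.97 TPM (1.59 ± 0.3). IL6 (0.92), TNF (0.6), IL1A (0.55), IL1B (0.15), CSF2 (0.09) and IL11 (-0.18) were not called.

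**Figure D2:**
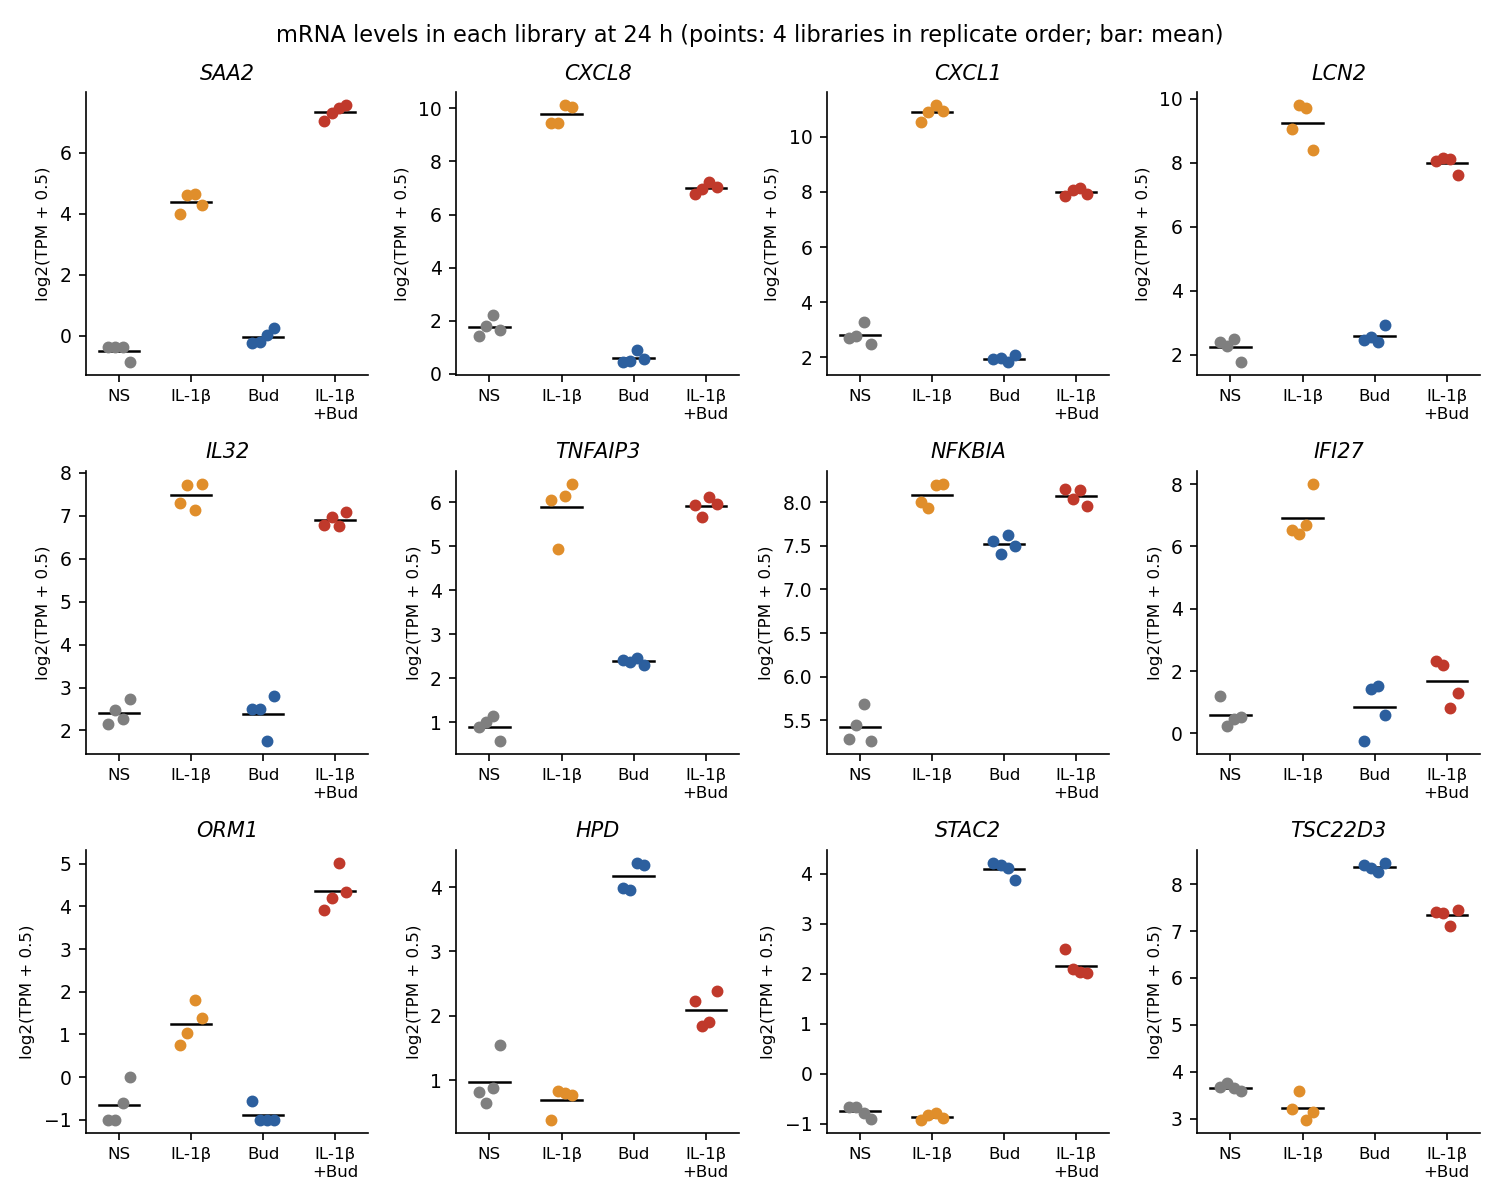
Level on the log2(TPM + 0.5) scale (vertical axes, which differ between panels) in each of the 4 libraries of NS, IL-1β, budesonide and IL-1β plus budesonide at 24 h for 12 genes. CXCL8, at 109 to 149.8 TPM with both treatments, is above the 0.869 to 1.39 TPM of budesonide, and STAC2, at 3.53 to 5.14 TPM, is below its 14.2 to 18.1 TPM.

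Acute phase proteins held the largest increase among all called genes. Of the tested members 10 of 18 rose, with a median of 1.59. SAA2, a serum amyloid A apolipoprotein, was at 130.5, 155, 176 and 188 TPM with IL-1β plus budesonide and at 0.356, 0.363, 0.508 and 0.682 TPM with budesonide (7.38 ± 0.3, adjusted p = 1.18e-30). SAA1 was at 311, 364, 334 and 390 TPM against 6.09, 7.66, 4.98 and 8.07 TPM (5.62 ± 0.29). LCN2, which binds bacterial siderophores, was at 265, 287, 275 and 198 TPM against 4.98, 5.4, 4.8 and 7.15 TPM (5.4 ± 0.27). For each of the 3 the groups were far apart. ORM1, a plasma carrier protein, was at 14.6, 17.8, 31.9 and 19.6 TPM, while with budesonide it was at 0.175 TPM in 1 library and listed at 0 in the other 3.

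Also raised were the protease inhibitor SERPINA3 (3.69 ± 0.22), the endotoxin carrier LBP (3.26 ± 0.2), SAA4 (2.73), ceruloplasmin CP (1.88), ORM2 (1.79) and SERPINA1 (1.38). The fibrinogen chains FGA (0.03), FGB (0.29) and FGG (-0.07) and the regulators CEBPB (0.22) and CEBPD (0.42) were not called, nor was hemopexin HPX (-1.15, adjusted p = 0.52). Reads of near-identical genes can be split unevenly. Of the 31-base words of ORM1 51.9% also occur in ORM2, of SAA1 39.5% in SAA2 and of SAA2 20% in SAA1, so the separate values of these genes are uncertain, and 30.3% of SERPINA3 is shared with another annotated gene.

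Of complement genes 4 of 19 rose, with a median of 0.14. CFB, the factor B of the alternative pathway, was at 229.6, 201, 272 and 278 TPM against 7.07, 7.1, 8.33 and 10.1 TPM (4.83 ± 0.19, adjusted p = 1.18e-30), with 38.8% of its words shared with another annotated gene. C3, the central component, was at 689.9, 786, 812 and 660 TPM against 155, 183, 174 and 102 TPM (2.29 ± 0.31). The groups did not overlap in either case. The surface regulator CD55 rose by 1.54 ± 0.17 and C4BPA by 1.29 ± 0.24.

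CLEC4E, a lectin that senses mycobacterial lipids and dead cells and is best known in macrophages, was at 71.8, 65, 77.5 and 134 TPM with IL-1β plus budesonide. It was at 0.177, 0.21, 0.357 and 0.996 TPM with budesonide (6.57 ± 0.31, adjusted p = 4.92e-27), and replicate 4 was the highest in both groups. TLR2 rose to 0.787 to 1.33 from 0.137 to 0.398 TPM (1.08 ± 0.18), which made 2 of 12 pattern recognition receptors (median 0.39). The leukocyte markers CD68, at 10.1 to 14.5 against 4.3 to 8.13 TPM (1.17 ± 0.19), and ITGAM, at 2.04 to 5.52 against 0.156 to 0.425 TPM (2.45 ± 0.33), also rose. The sum of the 12 leukocyte markers was 16.3 to 20.3 TPM against 5.68 to 9.65 TPM, with the lymphocyte markers CD3D, CD3E and MS4A1 at 0 in every library, and 77.1% of the words of CD68 are shared with another annotated gene. PTPRC, the pan-leukocyte CD45, was at 0.0373 to 0.124 against 0.0777 to 0.312 TPM and NKG7 at 0.0655 to 0.254 against 0.141 to 0.506 TPM, so the higher sum came from CD68 and ITGAM. The part of the leukocyte markers in these results was not tested.

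Of antimicrobials, antiproteases, mucins and trefoils 4 of 14 rose, with a median of 0.48. PI3, the elastase inhibitor elafin, was at 34.3, 35.4, 35.3 and 79 TPM against 0.114, 0.338, 0.672 and 1.03 TPM (5.47 ± 0.43, adjusted p = 2.46e-16), with replicate 4 the highest in both groups. The calprotectin subunits S100A9 (2.77 ± 0.57) and S100A8 (2.05 ± 0.35) and another elastase inhibitor, SLPI (1.64 ± 0.43), were also raised. C15orf48, a mitochondrial protein that can replace the complex IV subunit NDUFA4, was at 116, 160.3, 133 and 118 TPM against 1.55, 1.43, 1.61 and 2.65 TPM (5.86 ± 0.27), while NDUFA4 (-0.21) was not called. SOD2, the mitochondrial superoxide dismutase, was at 1300, 1057, 1491 and 1522 TPM against 73.3, 72, 69 and 70.8 TPM (4.21 ± 0.21). With the glutathione peroxidase GPX3 (1.35 ± 0.24) these made 3 of 19 genes of superoxide, nitric oxide and antioxidant metabolism. The median of that list was 0.06, and -0.01 after quantile normalization.

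Genes of antigen presentation rose in 10 of 17 cases, with a median of 1.13. HLA-B, a class I heavy chain, was at 34, 34.5, 38.6 and 55.1 TPM against 3.66, 1.84, 2.74 and 1.75 TPM (3.79 ± 0.36, adjusted p = 3.48e-13), without overlap. HLA-F (2.96 ± 0.55), the immunoproteasome subunit PSMB9 (2.17 ± 0.26) and the peptide transporter TAP2 (1.39 ± 0.2) followed. HLA-C (1.25), TAP1 (1.22), PSMB8 (1.2), B2M (1.15), PSMB10 (1.13) and TAPBP (1.05) were also called, and HLA-E (0.12) was not. Reads of HLA genes are hard to assign, with 38.1% of the words of HLA-B in other annotated genes.

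Calls among interferon-stimulated genes were all increases, 4 of 47, and the median of the list was 0.31. IRF1, a transcription factor, was at 30.9, 23.8, 32.1 and 31.6 TPM against 6.44, 4.8, 7.69 and 7.3 TPM (2.1 ± 0.13, adjusted p = 1.59e-20), without overlap. The guanylate-binding proteins GBP1 (1.84 ± 0.3), GBP3 (1.52 ± 0.27) and GBP2 (1.41 ± 0.19) were the other 3. IFI27 (0.83 ± 0.37), IFI6 (0.74 ± 0.22) and ISG15 (0.91 ± 0.26), classic targets of type I interferon, were not called, nor was IFITM1 (2.04, adjusted p = 0.321). Of 19 JAK-STAT and SOCS genes 0 were called by limma (median 0.06), with 5 higher and 5 lower at an unadjusted p under 0.05. The share of all genes tested at that unadjusted p was not counted. STAT5A, a signal transducer, was at 0.99 ± 0.19 and OSMR, the oncostatin M receptor, at 0.93 ± 0.15. STAT5A was short of 2-fold and was called with median-of-ratios scaling (1.01), with a pseudocount of 0.1 TPM (1.04), without budesonide replicate 1 (1.16) and without IL-1β-plus-budesonide replicate 2 (1.03).

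ICAM1, which binds leukocyte integrins, was at 10.5, 8.47, 8.98 and 6.69 TPM against 0.242, 0.286, 0.48 and 0.214 TPM (3.5 ± 0.26, adjusted p = 2.21e-17). With the collagen receptor subunit ITGA2 (1.05 ± 0.23) it made 2 of 18 adhesion genes (median 0.2), and ITGA2 was not called without IL-1β-plus-budesonide replicate 1 or 3 (0.991 and 0.99). Of matrix, metalloproteinase and plasminogen activation genes 4 of 21 rose (median 0.26), among them the metalloproteinase MMP7 (1.36 ± 0.18), the protease inhibitor SERPINE2 (1.17 ± 0.23) and the laminin chain LAMB3 (1.15 ± 0.33). The LAMB3 groups overlapped, at 36.8 to 60 against 11.4 to 41.5 TPM, and its call was lost without IL-1β-plus-budesonide replicate 4 (1.01) or budesonide replicate 3 (0.895). It was also lost in a fit of only the 8 libraries (1.15).

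Of prostanoid genes 2 of 9 rose, with a median of 0.26. The cyclooxygenase PTGS2 was at 26, 21.8, 39.2 and 26.3 TPM against 3.65, 3.6, 5.33 and 4.24 TPM (2.6 ± 0.31, adjusted p = 6.14e-10), and the prostaglandin E synthase PTGES rose by 1.43 ± 0.18. Among immediate early genes 4 of 23 rose and 1 fell, with a median of 0.17. KLF4, a factor of epithelial differentiation, was at 19.4, 19.8, 20 and 19.5 TPM against 6.97, 4.86, 6.39 and 6.58 TPM (1.6 ± 0.15, adjusted p = 3.29e-13). IER3 (1.33 ± 0.11), MAFF (1.05 ± 0.11) and NR4A1 (1.01) rose as well. NR4A1 was near the 2-fold limit, and the stability of its call was not examined. KLF2 was the lowered member, at 8.03, 4.74, 3.94 and 3.53 TPM against 11.1, 10.9, 9.34 and 13.5 TPM (-1.13 ± 0.21), and without IL-1β-plus-budesonide replicate 4 it was at -0.995 and not called. FOS (-0.07) and EGR1 (0.11) were not called. Of MAPK phosphatases 1 of 10 rose (median 0.16), DUSP6 (1.1 ± 0.21, and 0.994 and not called without IL-1β-plus-budesonide replicate 3), while DUSP1, a GR target, was at -0.26.

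A list of 20 genes that the study itself picked from these samples is no independent evidence of its direction. Of these 5 of 20 rose, with a median of 0.52, among them BIRC3, TNFAIP3 and TNFSF14 above and the NAD glycohydrolase CD38 (1.01). CD38 was near the 2-fold limit, and the stability of its call was not examined.

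**Figure D3:**
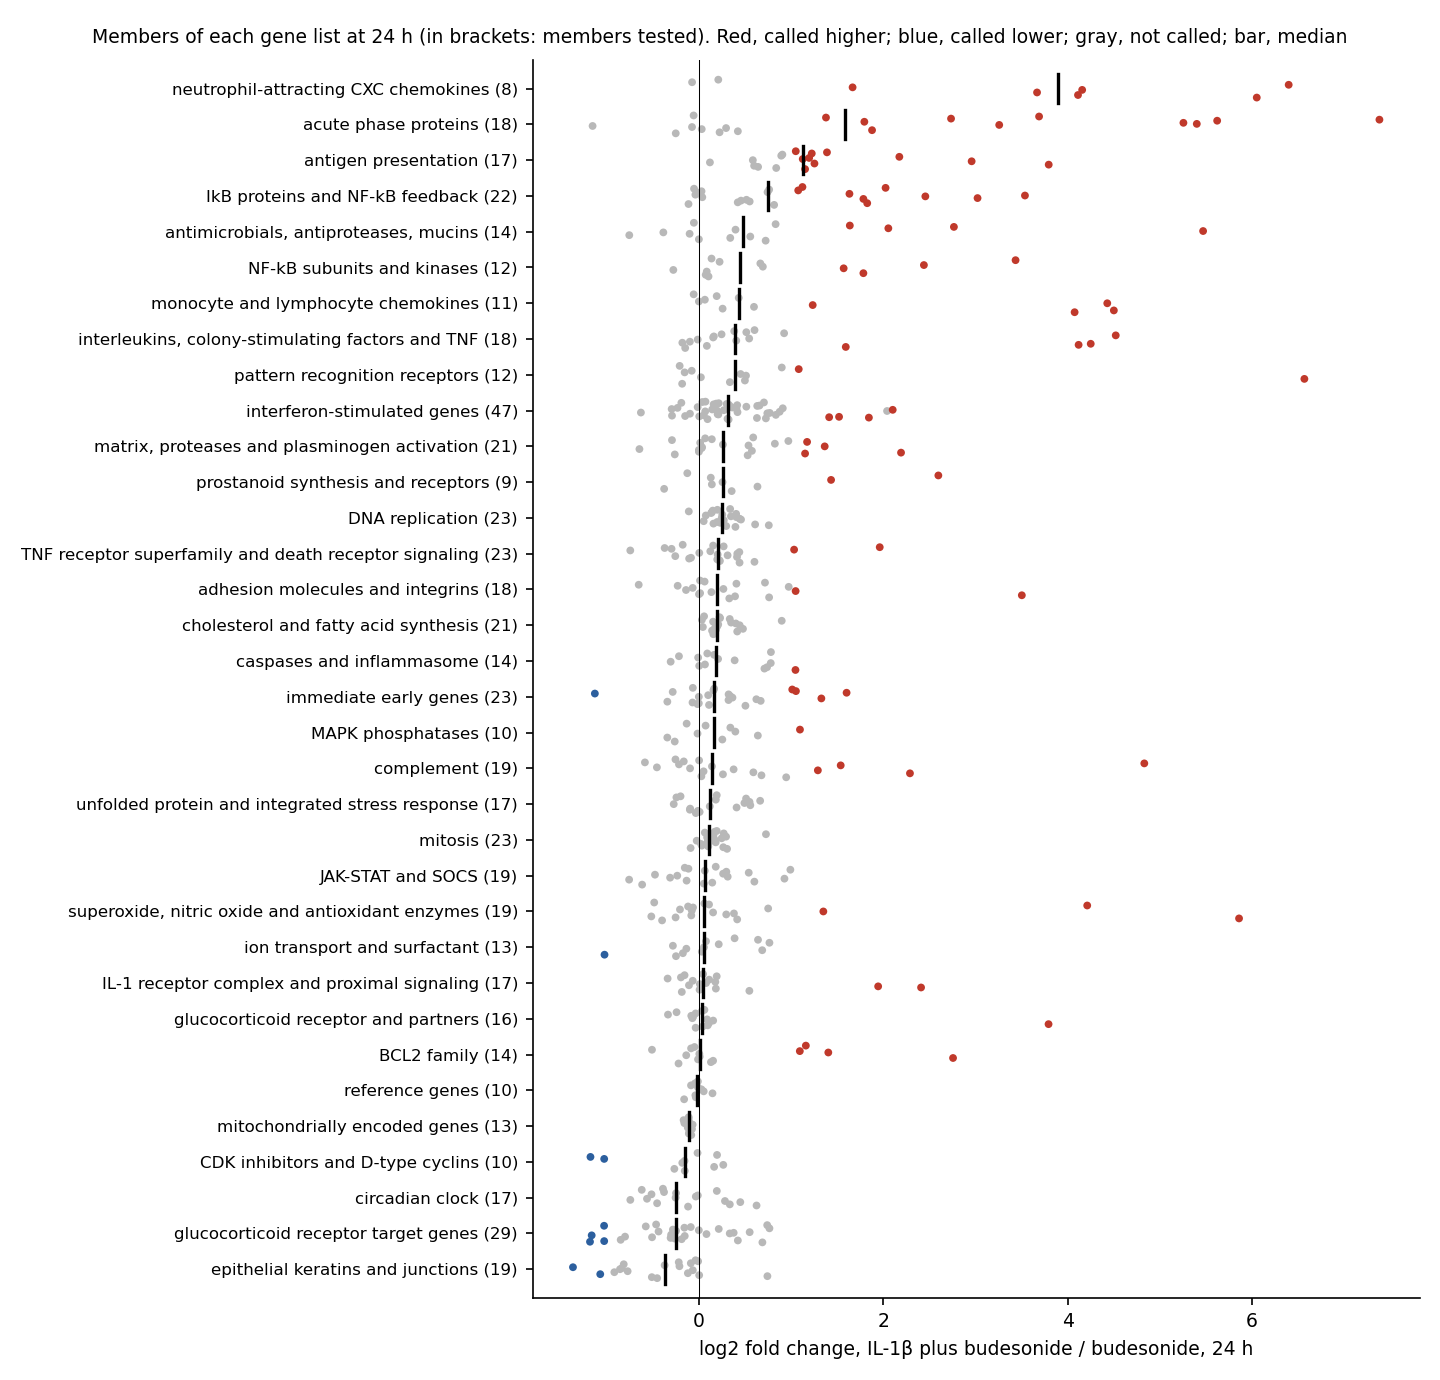
Log2 fold change of IL-1β plus budesonide over budesonide at 24 h (horizontal axis) for every tested member of the gene lists drawn, with each list's median. The leukocyte markers, the fibroblast and endothelial markers and the genes named by the study are not drawn. Neutrophil-attracting CXC chemokines (median 3.89) and acute phase proteins (1.59) lie far above the median of all genes tested (-0.03, not drawn). GR targets (-0.25), the circadian clock (-0.25) and epithelial keratins and junctions (-0.37) lie below it. So do CDK inhibitors and cyclins (-0.15) and mitochondrially encoded genes (-0.11).

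Among the lowest changes, several genes had a budesonide level far above that of NS. HPD, an enzyme of tyrosine breakdown, was at 4.2, 3.07, 3.24 and 4.74 TPM with IL-1β plus budesonide and at 15.3, 15.1, 20.3 and 19.7 TPM with budesonide (-2.08 ± 0.17, adjusted p = 1.05e-15). STAC2, a regulator of calcium channels, was at 5.14, 3.75, 3.61 and 3.53 TPM against 18.1, 17.6, 16.8 and 14.2 TPM (-1.94 ± 0.11, adjusted p = 2.86e-22). BEST2, a bestrophin anion channel, was at 5.1, 4.27, 3.29 and 4.16 TPM against 20.1, 14.7, 13.1 and 17.9 TPM (-1.85 ± 0.19). In NS and with IL-1β alone HPD was at 0.801 to 2.42 TPM, STAC2 at 0.0272 to 0.134 TPM and BEST2 at 0 to 0.4 TPM. In all 3 the level with both treatments lay below that with budesonide alone, a condition for naming them, and above every library without budesonide.

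The same order held for DNAJC15, a mitochondrial cochaperone, at 2.04 to 5.99 TPM with both treatments, 9.45 to 19.7 TPM with budesonide and 0.518 TPM or less without it (-1.82 ± 0.23). METTL7A was at 2.34 to 4.39, 11.6 to 16.7 and at most 0.369 TPM (-1.83 ± 0.18). PTGDS, a prostaglandin D synthase, was at 1.07, 0.852, 0.847 and 0.363 TPM against 7.38, 8.09, 9.26 and 3.08 TPM (-2.48 ± 0.27, adjusted p = 5.91e-11), with NS at 0.602 to 1.07 TPM. PHGR1 was listed at 0 in 3 libraries and at 0.431 TPM in 1 with both treatments, against 1.32, 1.63, 1.3 and 6.72 TPM, with NS at 0 to 0.315 TPM. DPEP1, a dipeptidase, was at 1.14 to 1.74 against 5.06 to 12.9 TPM (-2.08 ± 0.24), with NS at 1.16 to 1.87 TPM. None of these 5 overlapped between both treatments and budesonide, which was a condition for naming them. For PTGDS, PHGR1 and DPEP1 the order above did not hold, because the libraries with both treatments overlapped those of NS.

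CA9, a hypoxia-induced carbonic anhydrase, had the lowest change, at 3.89, 0.939, 4.37 and 4.45 TPM against 16.7, 15.1, 24.4 and 39.3 TPM (-2.69 ± 0.58, adjusted p = 0.000491). SPDEF, a factor of secretory cells, was at 2.84, 3, 3.91 and 2.92 TPM against 11.7, 9.38, 16 and 13.4 TPM (-1.82 ± 0.19), and at 4.93 to 6.56 TPM with IL-1β alone against 18 to 23.2 TPM in NS. PDZK1, a scaffold of transporters, was at 3 to 14.1 against 17 to 41.1 TPM (-2.01 ± 0.43). Replicate 2 was the lowest CA9 library with both treatments and replicate 4 the highest PDZK1 library in both groups. NRG4, an ErbB4 ligand, was at 1.57, 0.753, 1.39 and 2.1 TPM against 11.7, 8.32, 3.35 and 7.89 TPM (-2.02 ± 0.67, adjusted p = 0.0351). Its call was lost without IL-1β-plus-budesonide replicate 1, 2 or 3 (-2.07, -1.83 and -2.02) and without budesonide replicate 1, 2 or 4 (-1.8, -1.96 and -1.98). Other annotated genes share 61.3% of the words of PDZK1, 25% of METTL7A and 21.6% of PTGDS.

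Of 29 GR target genes 4 fell and 0 rose by limma, with 5 higher and 11 lower at an unadjusted p under 0.05. The share of all genes tested at that unadjusted p was not counted. The median of the list was -0.25, while in budesonide against NS, which shares the budesonide libraries, it was 2.71. TSC22D3, which encodes the anti-inflammatory GILZ, was at 168, 166, 138 and 174 TPM against 340.2, 322, 305 and 350.1 TPM (-1.03 ± 0.12, adjusted p = 1.45e-09), with NS at 11.5 to 12.9 TPM. The groups did not overlap, and the value was -0.954 without IL-1β-plus-budesonide replicate 3 and -0.998 without budesonide replicate 4, both short of a call. FKBP5, a GR cochaperone, was at 134, 126, 137 and 154 TPM against 236, 236, 250.4 and 237 TPM (-0.8 ± 0.1, adjusted p = 1.42e-09, below 2-fold), with NS at 9.26 to 9.51 TPM.

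CDH16, a cadherin, was at 14, 12.5, 12.5 and 25.3 TPM against 40.1, 26.7, 28.5 and 51.4 TPM (-1.18 ± 0.19). CDKN1C, the cyclin-dependent kinase inhibitor p57, was at 9.59 to 14 against 20.8 to 30.1 TPM (-1.03 ± 0.19), and was not called without IL-1β-plus-budesonide replicate 3 (-0.936) or budesonide replicate 4 (-0.927). HSD11B2, which inactivates cortisol, was at 4.73, 3.65, 5.21 and 10.4 TPM against 9.64, 9.21, 10.3 and 31.3 TPM. The HSD11B2 groups overlapped, and the call (-1.16 ± 0.33) was lost without budesonide replicate 4 (-0.754) or IL-1β-plus-budesonide replicate 2 (-0.98). It was also lost in a fit of only the 8 libraries (-1.16) and with a pseudocount of 0.1 TPM (-1.22). HSD11B1, which regenerates cortisol, went the other way, at 45.6, 35.7, 36.6 and 69 TPM against 1.71, 2.17, 1.62 and 8.84 TPM (3.79 ± 0.33, adjusted p = 1.7e-14). It was the raised member of 1 of 16 genes for GR, its chaperones, coregulators and cortisol enzymes (median 0.04), and NR3C1 itself (-0.24 ± 0.21) was not called.

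Of 19 epithelial keratin and junction genes 2 fell, with a median of -0.37. CLDN3, a claudin, was at 1.52 to 2.88 against 4.62 to 6.24 TPM (-1.07 ± 0.19) and was not called without IL-1β-plus-budesonide replicate 4 (-0.911), and KRT4 was at 0.0836 to 0.416 against 0.902 to 2.69 TPM (-1.37 ± 0.19). The abundant KRT8 had group means of 4207 and 7363 TPM (-0.81, adjusted p = 6.36e-07) and KRT18 of 2545 and 4569 TPM (-0.86, adjusted p = 0.00013), both below 2-fold. The sum of the 10 epithelial markers was 8440 to 11300 TPM with both treatments and 14500 to 17800 TPM with budesonide. Its part in the list's values was not tested. Of ion transport and surfactant genes 1 of 13 fell, the water and glycerol channel AQP3 (-1.02 ± 0.28), and the median was 0.05, or -0.01 after quantile normalization. The AQP3 groups overlapped, and its call was lost without budesonide replicate 4 (-0.748) or IL-1β-plus-budesonide replicate 2 (-0.781). A fit of only the 8 libraries (-1.02) and sample weights (-0.962) ended it too. Of 10 CDK inhibitors and cyclins 2 fell (median -0.15), CDKN1C and CDKN2C, the latter at 9.71, 10.5, 10.3 and 12.6 TPM against 21.7, 22.9, 26.1 and 29.5 TPM (-1.18 ± 0.11).

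Several lists had 0 called members in limma. Over all genes tested, 1504 had an adjusted p of at most 0.05 in limma, so at least that many had an unadjusted p under 0.05. The full share of all genes at that unadjusted p was not counted, so the list counts below stand without it. At an unadjusted p under 0.05, DNA replication had 11 higher and 0 lower of 23 (median 0.25) and mitosis 4 higher and 0 lower of 23 (0.11). Cholesterol and fatty acid synthesis had 10 higher and 0 lower of 21 (0.2), the unfolded protein and integrated stress response 7 higher and 2 lower of 17 (0.12), and the circadian clock 1 higher and 6 lower of 17 (-0.25). CDC45, a helicase cofactor of replication, was at 1.8 to 3.28 against 0.939 to 1.74 TPM (0.76 ± 0.18), both below the 15.7 to 21.3 TPM of NS. Reference genes had 1 higher and 0 lower of 10 (-0.02), mitochondrially encoded genes 0 higher and 0 lower of 13 (-0.11) and fibroblast and endothelial markers 0 higher and 0 lower of 5 (0.23).

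IL-1β alone was compared with NS at 24 h to give the same contrast without budesonide, in 8 other libraries. It raised 501 genes (3.76%) and lowered 575 (4.31%). Of the genes raised by IL-1β with budesonide, 169 were also raised without it, which was 76.1% of the 222 and 33.7% of the 501. Of those lowered, 39 were also lowered without it, 41.1% of the 95 and 6.78% of the 575, and 0 genes had opposite calls. In budesonide against NS, which shares the budesonide libraries, 59 of the 95 (62.1%) were raised, 1 was lowered and 35 were not called. Over all 13327 genes tested, that contrast raised 546 and lowered 760. A budesonide level that is high by chance favors both calls, so the 59 are no independent evidence. A gene near 0 TPM in NS cannot fall 2-fold on the log2(TPM + 0.5) scale. STAC2 and BEST2, with NS means of 0.0949 and 0.245 TPM, could thus not be called lower without budesonide. One library of IL-1β alone, replicate 2, lay farther from its group (0.374, the median absolute log2 distance to the other libraries of the group) than any of the 8 (0.121 to 0.155). Without it 174 genes were raised in both and 37 lowered in both.

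**Figure D4:**
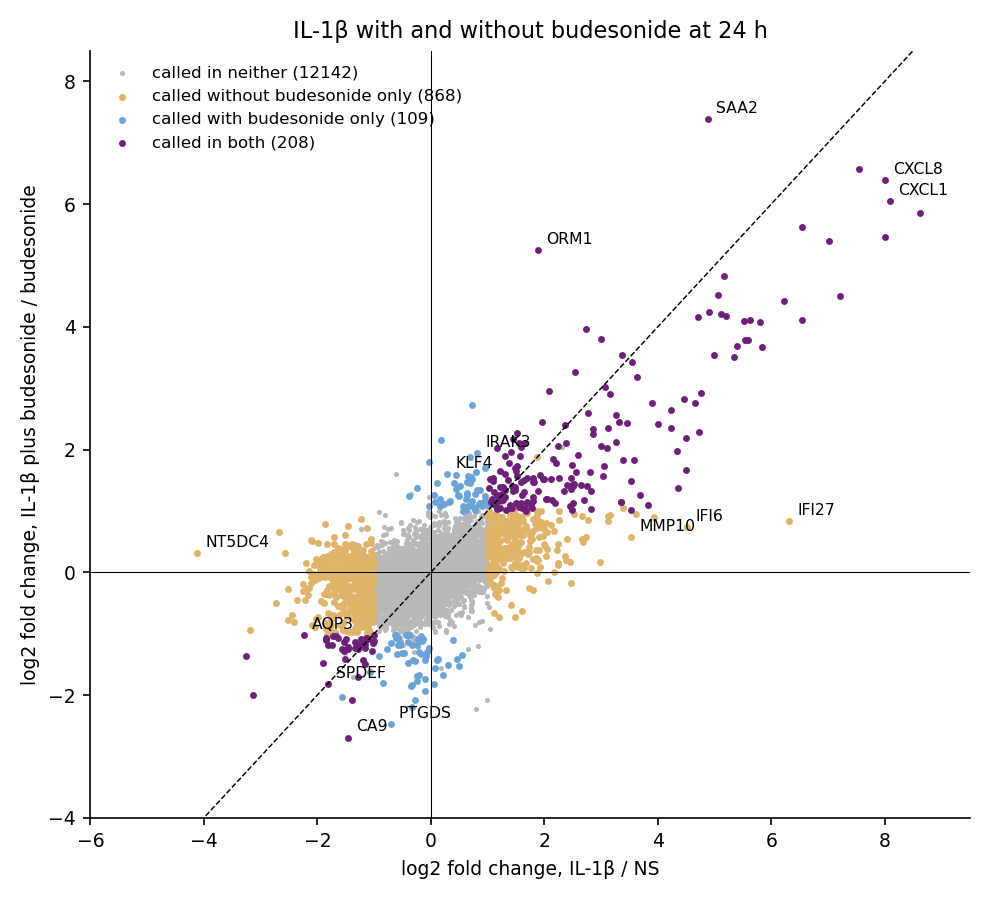
Log2 fold change at 24 h of IL-1β plus budesonide over budesonide (vertical axis) against that of IL-1β over NS (horizontal axis) for the 13327 genes tested. The 208 genes called in both share their direction, and IFI27, IFI6 and MMP10 are at 0.83, 0.74 and 0.57 on the vertical axis but at 6.31, 4.51 and 3.54 on the horizontal.

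The difference between both changes was tested as an interaction, positive where IL-1β had the higher log2 change with budesonide. It was called positive for 414 genes (3.11%) and negative for 251 (1.88%), and for 386 and 273 without IL-1β replicate 2. IFI27, an interferon-stimulated mitochondrial protein, had the lowest value. It was at 4.51, 4.12, 1.26 and 1.98 TPM with IL-1β plus budesonide and 0.343, 2.19, 2.39 and 1.02 TPM with budesonide, which overlapped. With IL-1β alone it was at 92.2, 83.4, 102 and 258 TPM and in NS at 1.77, 0.673, 0.874 and 0.93 TPM (interaction -5.47 ± 0.53, adjusted p = 9.56e-13). IFI6 (-3.77) and ISG15 (-3.02) followed, and of the 47 interferon-stimulated genes 13 were negative and 0 positive (18 and 0 without IL-1β replicate 2).

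Of neutrophil-attracting chemokines 7 of 8 had a negative interaction. CXCL8 was at 698, 693, 1119 and 1067 TPM with IL-1β alone and 2.16 to 4.21 TPM in NS (-1.6, adjusted p = 7.43e-05), and CXCL1 at 1493, 1911, 2293 and 1971 and 5.05 to 9.1 TPM (-2.04). CXCL6 was among the lowest (-2.83). CXCL5 (-0.55) was not called, at 1629 to 3184 TPM with IL-1β alone, 279.9 to 345 TPM with both treatments, 86.5 to 115 TPM in NS and 15.5 to 17.6 TPM with budesonide. Of interleukins, colony-stimulating factors and TNF 8 of 18 were negative, with IL23A at -2.81, IL11 at -2.65, CSF3 at -2.42 and IL6 at -2.19. Of NF-κB inhibitors and feedback genes 7 of 22 were negative, with NFKBIA at -2.11, BIRC3 at -1.75 and TNFAIP3 at -1.45. IGFBP1, a binder of insulin-like growth factors (-2.99), and the metalloproteinase MMP10 (-2.96) were also at the lower end.

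Among the 6 highest interactions, 5 were of genes with their highest mean level in NS, and the other was ORM1. NT5DC4 (4.44) was at 15.3, 29.3, 32 and 20.8 TPM in NS and at 0 to 6.16 TPM over the other 3 groups. BCAS1 (2.88), CIP2A (2.66), an inhibitor of a protein phosphatase, the kinetochore gene KNL1 (2.6) and TM4SF20 (2.63) were likewise highest in NS in every library. The call of TM4SF20 was lost without replicate 4 of IL-1β plus budesonide or of NS. The interaction was positive for 21 of 23 replication genes and 23 of 23 mitosis genes, the same counts as without IL-1β replicate 2. Their median changes were -1.4 and -1.56 for IL-1β against NS, and 0.25 and 0.11 for IL-1β plus budesonide against budesonide. For budesonide against NS, which shares the budesonide libraries, the medians were already -2.36 and -2.59. The mitosis genes summed to 1197 to 1316 TPM in NS and 312 to 512 TPM with IL-1β alone. They summed to 175 to 228 TPM with budesonide and 192 to 271 TPM with both treatments, the lowest levels of the groups at 24 h.

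ORM1 was the acute phase gene with the highest interaction (3.36 ± 0.36, adjusted p = 4.04e-11), at 1.19, 1.54, 2.99 and 2.09 TPM with IL-1β alone against 14.6 to 31.9 TPM with both treatments. SAA2 (2.5) was at 15.4 to 24.7 TPM with IL-1β alone against 130.5 to 188 TPM with both. SAA1 was at 41 to 68.2 and 311 to 390 TPM, and its interaction (-0.92) was not called, with budesonide at 4.98 to 8.07 TPM and NS at 0.119 TPM or less. Of acute phase genes 6 of 18 were positive (5 without IL-1β replicate 2) and 4 negative, with LCN2 at -1.61 and SERPINA3 at -1.72. IRAK3 (1.12), TLR2 (1.12) and KLF4 (1.32) were positive too. KLF4 was at 5.49 to 6.93 TPM with IL-1β alone and 3.95 to 5.79 TPM in NS, against 19.4 to 20 TPM with both treatments and 4.86 to 6.97 TPM with budesonide.

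The genes called at 24 h were set against earlier times, at which other libraries were used. IL-1β plus budesonide against budesonide raised 114 genes and lowered 3 at 1 h, and raised 341 and lowered 53 at 2 h. At 6 h it raised 401 genes and lowered 263, and 12 h gave 211 raised and 87 lowered. Among those raised after 24 h, 37 were raised at all 5 times, 166 at 6 h, 168 at 12 h and 31 at none of the earlier times. Among the 95 lowered after 24 h, 68 had also been lowered at 6 h and 51 at 12 h, while 7 were lowered as early as 2 h and 19 at no earlier time. At these times 4 libraries, each the farthest of its group, stood apart. They were IL-1β plus budesonide replicate 2 at 12 h (distance 0.459, 1 of only 3 in its group) and replicate 4 at 1 h (0.291). The others were budesonide replicate 3 at 2 h (0.315) and replicate 2 at 12 h (0.308). Replicates 1 and 4 of IL-1β plus budesonide at 12 h were also distant (0.273 and 0.259) and were kept. Without the 4 farthest libraries, chosen after seeing the data, 12 h gave 218 raised and 95 lowered genes. There were 329 raised and 61 lowered at 2 h, and 122 raised and 3 lowered at 1 h. Then 40 of the 222 were raised at all 5 times and 35 at no earlier time. The difference between the changes at 24 h and 6 h was called positive for 75 genes (0.563%) and negative for 135 (1.01%).

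**Figure D5:**
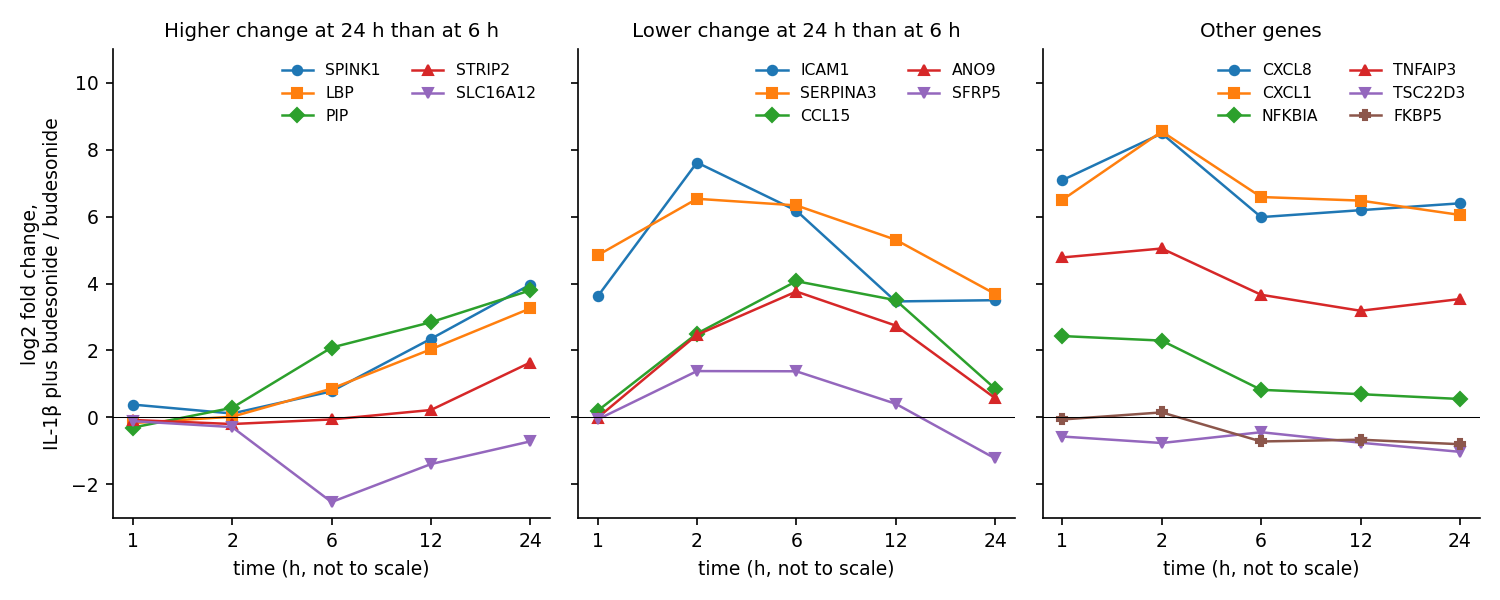
Log2 fold change of IL-1β plus budesonide over budesonide (vertical axis) at 1, 2, 6, 12 and 24 h (horizontal axis, not to scale) for 16 genes, with lines joining the fitted values. SPINK1 goes from 0.78 at 6 h to 3.97 at 24 h and ICAM1 from 6.18 to 3.5.

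SPINK1, a secreted trypsin inhibitor, had the most positive difference. It was at 21.8, 22.5, 26.6 and 20.6 TPM against 0.745, 1.12, 1.32 and 0.82 TPM at 24 h (3.97 ± 0.46), and at means of 2.65 and 1.65 TPM at 6 h (0.78). The difference of these changes was 3.19 ± 0.66 (adjusted p = 0.000605), and its call was lost with a pseudocount of 0.1 TPM. LBP was at 0.86 at 6 h and 3.26 at 24 h (difference 2.4), the secretory protein PIP at 2.09 at 6 h and 3.8 at 24 h (1.71) and STRIP2 at -0.06 at 6 h and 1.64 at 24 h (1.7). SLC16A12, a creatine transporter, was at -2.53 at 6 h and -0.72 at 24 h (1.81), where it was not called at 24 h.

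At the other end ICAM1 was at means of 54.5 and 0.262 TPM at 6 h (6.18) and 8.66 and 0.305 TPM at 24 h (3.5), a difference of -2.67 ± 0.37 (adjusted p = 3.18e-07). SERPINA3 was at 614 and 7.3 TPM at 6 h and at 282 and 21.2 TPM at 24 h (difference -2.64). CCL15, a chemokine with 45.1% of its words in other genes, was at 4.07 at 6 h and 0.86 at 24 h (-3.21), and ANO9, of the anoctamin family, at 3.76 at 6 h and 0.58 at 24 h (-3.18). SFRP5, a secreted Wnt antagonist, was raised at 6 h (1.38) and lowered at 24 h, at 1.74, 1.28, 0.89 and 0.734 TPM against 4.06, 4.4, 3.33 and 1.89 TPM (-1.22 ± 0.23, difference -2.6). CXCL8 was at 5.98 at 6 h and 6.4 at 24 h and TNFAIP3 at 3.66 at 6 h and 3.54 at 24 h, differences that were not called.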

How the data were processed

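A549 cells were sequenced as poly(A) RNA (TruSeq Stranded), and reads were quantified by the authors with kallisto on GRCh38 (hg38) and normalized between libraries with sleuth, per the study's methods and the submitters' processing notes, with versions not given in the sources used here. The deposited signal is thus TPM rescaled between libraries by the authors, without read counts. The methods give an approximate number of reads per sample, but the count of each library is unknown here and no counting interval is given. A second deposited table holds the authors' own comparisons (fold changes, adjusted p and peak times) and was not used. Values of 1 library that matched no sample label were not used.

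Groups came from the labels. Genes with at least 1 TPM in at least 3 of 78 libraries were analyzed as log2(TPM + 0.5) with limma 3.58.1 (R 4.3.3) with a mean trend, in 1 fit of 20 group means with 58 residual degrees of freedom, and Benjamini-Hochberg adjustment over 13327 genes. p-values rest on the spread of libraries within groups, pooled over the 20 groups. The main fit holds no term for the replicate number, so it treats the 78 libraries as independent and leaves their pairing out. The members and lists were chosen with earlier results of these data known. Named genes were the 14 highest and 12 lowest called changes without overlap and with at least 2 TPM in the higher group, up to 4 called members a list (up to 2 of a list without calls), 13 pathway genes, the 6 highest and 6 lowest interactions and the 5 highest and 5 lowest differences between 24 h and 6 h. Other members of a list are named to complete its account, after their values were seen, and the stability of their calls was not examined. Some genes that the rule names are not reported here. The fit was tested on simulated data. Labels number the replicates alike in each group, and deviations from group means correlated between same-numbered libraries of IL-1β plus budesonide and budesonide at 0.167, 0.298, 0.242 and 0.407 and of IL-1β and NS at 0.139 to 0.358, so the numbers pair the libraries. Alternatives were other pseudocounts, filters, scalings, fits and weights, a replicate block and leaving out each library. Shared words are 31-base stretches of GENCODE v44 transcripts that also occur in another gene, which may not match the authors' annotation. Promoters were read from RefSeq (GRCh38.p14). Figures were drawn with matplotlib 3.10.9 (Python 3.11.15).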

Additional observations from a re-analysis of the deposited data

Results flagged for a closer look

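In the groups of IL-1β plus budesonide and of budesonide at 24 h, 23 of 243 sets of 4 libraries held 1 library far from the other 3, by a rule that chance meets in about 1 of 20 sets. With IL-1β plus budesonide the library was the highest for replicate 1 in STAC2 5.14 TPM, and replicate 2 in CARD16 1.43 and ISG15 4.33 TPM, and replicate 3 in SPDEF 3.91 TPM, and replicate 4 in CDH16 25.3, GBP2 14, NT5DC4 3.71 and PI3 79 TPM. It was the lowest there for replicate 2 in CA9 0.939, IRF1 23.8, MT-ND4L 8710, TAP2 18.3 and ZC3H12A 138 TPM. With budesonide the library was the highest for replicate 3 in BHLHE40 22.1, BID 29.1 and FKBP5 250 TPM, and replicate 4 in HSD11B1 8.84, HSD11B2 31.3, IGFBP1 83.4, PHGR1 6.72, SLPI 75.5 and TM4SF20 28.1 TPM, and the lowest for replicate 2 in DUSP6 5.6 TPM. Each value is the level in that library.

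The change by IL-1β differed with and without budesonide at 24 h, by the interaction in limma (log2 difference of changes), most negatively for IFI27 -5.47, IFI6 -3.77, ISG15 -3.02, IGFBP1 -2.99, MMP10 -2.96 and CXCL6 -2.83, and most positively for NT5DC4 4.44, ORM1 3.36, BCAS1 2.88, CIP2A 2.66, TM4SF20 2.63 and KNL1 2.6. Between 24 h and 6 h the change by IL-1β plus budesonide over budesonide differed, by the same kind of test, most negatively for CCL15 -3.21, ANO9 -3.18, ICAM1 -2.67, SERPINA3 -2.64 and SFRP5 -2.6, and most positively for SPINK1 3.19, LBP 2.4, SLC16A12 1.81, PIP 1.71 and STRIP2 1.7. The genes named are the extremes of each test among those called with a mean of at least 2 TPM in 1 group.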

How the results depend on the processing

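With only genes of a mean of at least 5 TPM, 137 genes were raised and 33 lowered by IL-1β plus budesonide over budesonide at 24 h, 286 were raised by IL-1β over NS, 131 had a negative interaction, and 27 and 59 had a positive and a negative difference between 24 h and 6 h. That filter tests fewer genes. With a pseudocount of 1 TPM, 34 had a positive difference between 24 h and 6 h, and the cause was not tested. The other alternatives kept each count within 1.5 times. With the replicate block 227 genes were raised and 104 lowered, and in the 8 libraries alone with the replicate block, chosen after seeing the data, 224 and 105. In that comparison the block changed no call of a named gene. Leaving out 1 library at a time gave 214 to 231 raised and 85 to 109 lowered genes. It gave 471 to 544 and 535 to 630 for IL-1β over NS, 386 to 461 positive and 240 to 276 negative interactions, and 62 to 83 positive and 121 to 135 negative differences between 24 h and 6 h. Of 2448 values of the 138 named genes at 24 h under the alternatives, 2394 kept direction and call, 46 (19 genes) lost the call, 8 (4 genes) gained it and 0 reversed. A pseudocount of 1 TPM ended the calls of BIK, C4BPA, CARD16, CCL4, CDKN1C, CLDN3, ITGA2, KRT4, MAFF, TLR2 and TNFRSF9, whose means in the higher group ran from 0.752 to 24.6 TPM. Without read counts, the counting error of low genes is unknown.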
